A study of Mus musculus with 36 samples.

Results

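Pparg, which encodes the nuclear receptor PPARγ, Rxra, which encodes its dimer partner RXRα, and 6 genes known as PPAR targets were followed through 36 mouse bladder tumour and cell line libraries. The 6 target genes were Fabp4, Fabp5, Plin2, Angptl4, Acsl3 and Cpt1a. The 8 genes were taken by their symbols from a deposited RNA sequencing table of 21705 genes, and each had 1 row in it. The study set 2 ways of raising bladder tumours in mice side by side, and followed transplantable lines of each.

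PPARγ pairs with RXRα on DNA and switches on genes of fatty acid uptake, binding and storage when a fatty acid or a drug such as a thiazolidinedione occupies it. It is best known as the driver of fat cell formation. In the bladder it takes part in the luminal differentiation of the urothelium, the epithelium that lines the bladder. Its target genes are not exclusive to it, since the related receptors PPARα and PPARδ and the hypoxia response act on several of them.

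UPPL primary tumours (9 libraries) came from mice of the genotype Upk3a-CreERT2, p53f/f and Rosa26LSL-Luc, labelled untreated. In them a drug-inducible Cre is driven by the promoter of Upk3a, a uroplakin gene of luminal urothelium, and a luciferase reporter sits behind a stop cassette. BBN primary tumours (11 libraries) came from mice whose genotype label is Ctrl and whose treatment was N-butyl-N-(4-hydroxybutyl)nitrosamine, a bladder carcinogen. Line-derived tumours were grown from UPPL1541 (4 libraries, with the UPPL genotype), BBN963 (2 libraries, Ctrl) and MB49 (4 libraries, Ctrl), a long-established mouse bladder cancer line, all labelled untreated. Cultures of the lines themselves gave 1 library each, with Ctrl as the genotype label of all, UPPL1541 included, and 3 more cultures came from the lines KT1044, KT1970 and KT1975, whose abbreviation the labels do not spell out. Tumours of 1 line share its origin, so their spread is that of repeated tumours of a line and not of a model. Age and sex of the animals are not given.

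The values are those the authors deposited, scaled so that the 75th percentile of the genes above 0 is 1000 in each library. They carry no correction for gene length that could be checked, so levels are compared between libraries and never between genes. The libraries held 9294380 to 17926585 reads as recovered from the steps in the values. The lowest common value corresponded to 1 read in the cultures and to 2 to 19 reads in the tumours, so a 0 in a tumour can stand for several reads. In 5 libraries that step was 10 reads or more: BBN963 tumour 1, MB49 tumour 1 and the primary tumours BBN962, UPPL1595 and UPPL1597. The epithelial gene Epcam was listed at no more than 2.132 in MB49 tumours and at 0 in the MB49 culture. Every other group stood at 1717 or more for Epcam. Of 6 epithelial markers, 4 were lower and 2 higher in MB49 than in UPPL1541 tumours. In bulk tissue, fewer cells of a type and less RNA per cell cannot be told apart.

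RefSeq promoter windows, from 250 bases before to 50 bases after a start site (GRCm38.p6), were found for 5 of the 8 genes, in 8 windows: 3 for Pparg, 2 for Rxra and 1 each for Plin2, Acsl3 and Cpt1a. They were searched on both strands for AGGTCA, the hexamer that nuclear receptors of this class bind, and for the direct repeat AGGTCANAGGTCA, the element of the PPAR and RXR pair, with up to 2 mismatches. The repeat matches overlap the hexamer matches where a repeat holds an exact hexamer. Of all 32851 windows in the table, 16.3% held the hexamer and 3.86% the repeat at this tolerance. The hexamer occurred in 5 of the 8 windows and the repeat in 2, those of Plin2 and of the second start of Rxra. Of the Pparg starts, the first 2 are shown, which hold the hexamer, while the third held neither the hexamer nor the repeat. The deposited row adds up reads from all starts and does not say which was used. The windows of Plin2 and Rxra are shown because they hold the repeat. Capitals mark each match, and a match describes letters and not a bound site.
Pparg, first start, chr6:115360894-115361193, plus strand: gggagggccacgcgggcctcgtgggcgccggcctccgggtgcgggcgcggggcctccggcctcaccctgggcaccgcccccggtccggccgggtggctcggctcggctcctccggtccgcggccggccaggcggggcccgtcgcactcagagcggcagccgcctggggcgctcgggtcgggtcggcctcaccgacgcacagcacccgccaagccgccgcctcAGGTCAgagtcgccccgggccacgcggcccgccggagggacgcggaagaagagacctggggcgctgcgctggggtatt
Pparg, second start, chr6:115362099-115362398, plus strand: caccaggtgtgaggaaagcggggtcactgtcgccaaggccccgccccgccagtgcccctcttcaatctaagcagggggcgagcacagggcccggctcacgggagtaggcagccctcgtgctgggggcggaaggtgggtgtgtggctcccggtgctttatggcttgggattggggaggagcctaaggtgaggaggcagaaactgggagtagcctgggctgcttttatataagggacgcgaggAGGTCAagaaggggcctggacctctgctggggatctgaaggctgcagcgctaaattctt
Plin2, chr4:86670010-86670309, minus strand: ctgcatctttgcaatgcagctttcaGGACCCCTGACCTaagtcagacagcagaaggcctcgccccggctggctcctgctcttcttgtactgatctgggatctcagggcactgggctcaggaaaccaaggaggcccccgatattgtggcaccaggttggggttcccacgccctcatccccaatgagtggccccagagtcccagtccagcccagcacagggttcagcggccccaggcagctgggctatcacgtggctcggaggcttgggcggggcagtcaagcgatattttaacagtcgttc
Rxra, second start, chr2:27709042-27709341, plus strand: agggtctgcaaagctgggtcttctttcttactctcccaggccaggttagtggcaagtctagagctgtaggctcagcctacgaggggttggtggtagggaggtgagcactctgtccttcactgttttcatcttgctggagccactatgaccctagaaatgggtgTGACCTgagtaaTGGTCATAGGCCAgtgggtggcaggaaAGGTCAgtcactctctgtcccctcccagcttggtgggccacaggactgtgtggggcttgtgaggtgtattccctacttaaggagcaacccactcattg
Positions are counted from the start site, with negative values before it. In the Pparg windows the hexamer began at -28 from the first start and at -9 from the second. In the Plin2 window the repeat began at -225, on the strand opposite to the gene, and read GGACCCCTGACCT in the gene's direction. In the Rxra window it began at -75 and read TGGTCATAGGCCA.

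The primary tumours of the 2 models were compared first. Pparg, Fabp4, Plin2 and Acsl3 were higher in UPPL than in BBN tumours, and the partner Rxra and the targets Fabp5, Angptl4 and Cpt1a did not pass the test. The separation was widest for Pparg and Fabp4, where no UPPL tumour overlapped any BBN tumour. How many of all genes separated the models so fully was not counted. In all, 4 of the 8 genes were called higher and 0 lower, against 5.71% of the 12818 genes tested called higher and 12.8% called lower. The test was limma on log2(value + 1) with Benjamini-Hochberg adjustment over all genes tested and a threshold of 0.05. Over all genes the median log2 difference was -0.19. With quantile normalization the split of all genes was 938 higher and 987 lower, and with median-of-ratios scaling 1085 and 1146, in place of 732 and 1639. Those scalings moved the median to -0.04 and -0.07, and the 4 calls and their direction held under both.

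**Figure D1:**
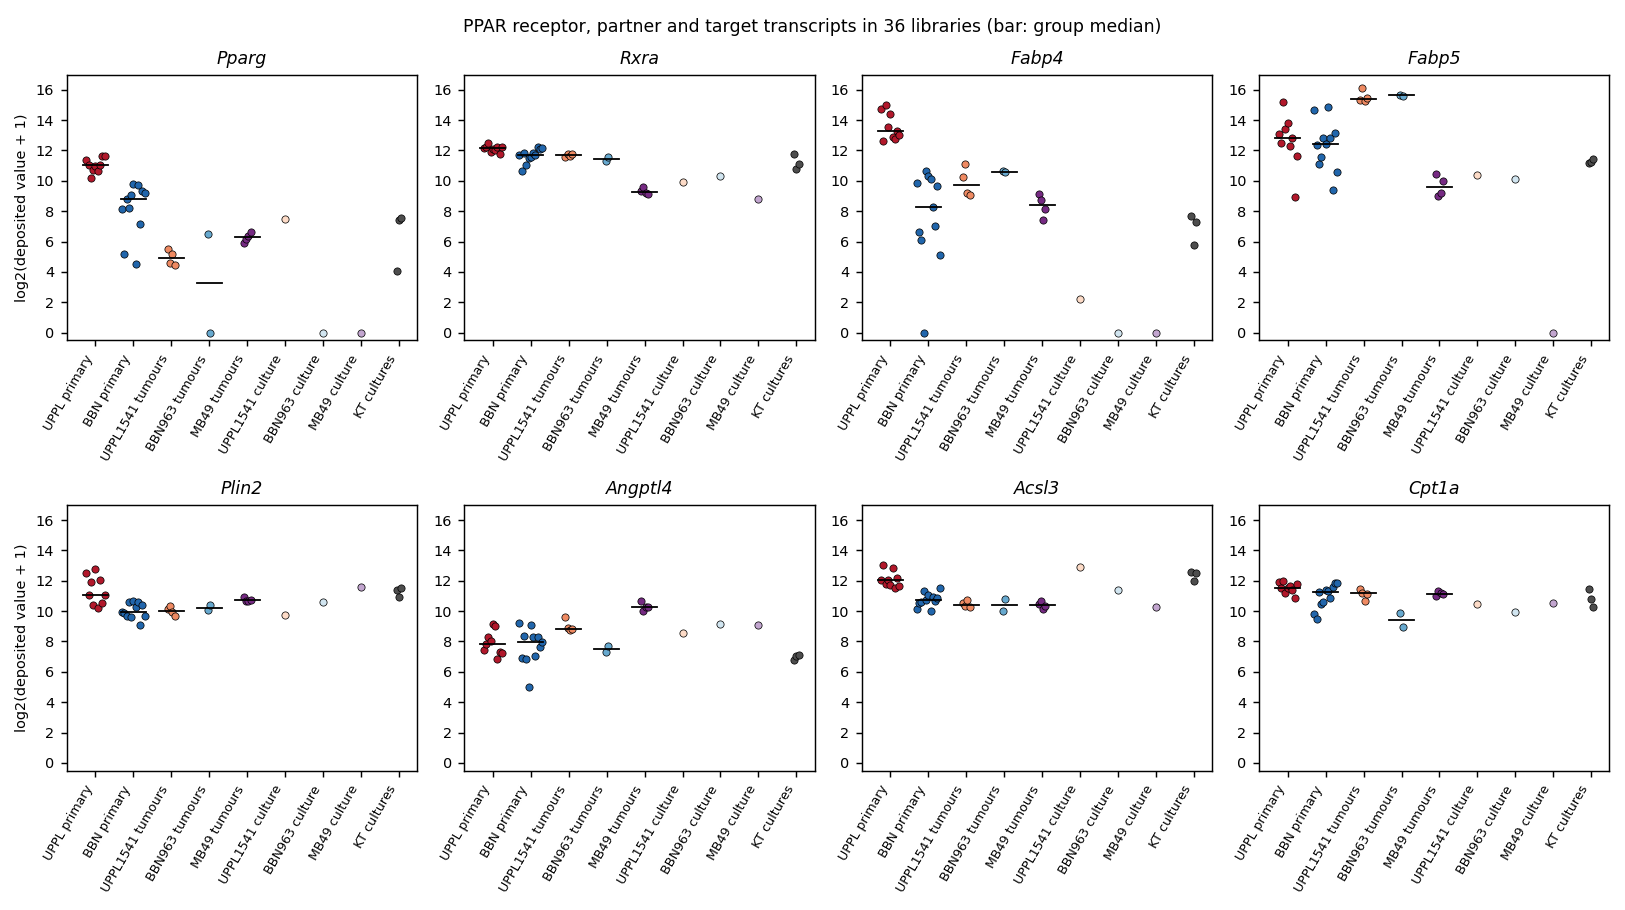
Values of the 8 genes in each of the 36 libraries, as log2(deposited value + 1), by group; each point is 1 library and the bar is the group median (none is drawn for single cultures or for the 3 KT lines). Pparg and Fabp4 of the 9 UPPL primary tumours sit above all 11 BBN primary tumours, and a point at 0 is a value listed at 0.

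Pparg ranged from 1167 to 3218 in the 9 UPPL tumours, with a median of 2076, and from 22.5 to 877 in the 11 BBN tumours, with a median of 454. The lowest UPPL tumour, UPPL1591, stood above the highest BBN tumour, BBN969. UPPL exceeded BBN by a log2 difference of 2.92 ± 0.56 (SE), with adjusted p = 0.0016. Within BBN the receptor varied far more than within UPPL: the highest BBN tumour held 39.1 times the lowest, against 2.76 times in UPPL. BBN972 at 22.5 and BBN963 at 35.4 were the lowest, and BBN963 shares its number with the transplanted BBN line.

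Rxra was the steadiest of the 8 genes among UPPL tumours. Its values ran from 3422 to 5717 in UPPL tumours (median 4592) and from 1611 to 4879 in BBN tumours (median 3354), and the groups overlapped. The log2 difference of 0.46 ± 0.17 (SE) had adjusted p = 0.064. The call depended on the setting: it passed with median-of-ratios scaling (0.58, adjusted p = 0.018) and with edgeR on recovered reads (0.55, adjusted p = 0.027). Its SD on the log2 scale within UPPL was 0.22, lower than that of all but 2.4% of genes.

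Fabp4 encodes a fatty acid binding protein of adipocytes, capillary endothelium, macrophages and urothelium, and is a classical PPARγ target. In UPPL tumours it ran from 6437 to 32420 with a median of 9917, and in BBN tumours from 0 to 1628 with a median of 304. The mean was 14733 ± 9795 (SD, n = 9) against 581 ± 589 (SD, n = 11). The log2 difference was 5.97 ± 0.99 (SE), with adjusted p = 0.00049, and 4.81 with edgeR on recovered reads. UPPL1591, the tumour with the least Pparg in its model, had the most Fabp4.

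Markers of the other cell types that make Fabp4 were set beside it. Of 9 adipocyte markers, 8 had a median of 0 in each model, among them Adipoq, Plin1, Cidec, Lep and Retn, which are close to specific for fat cells. Their summed value ran from 121 to 357 in UPPL and from 114 to 417 in BBN tumours, nearly all of it the lipase gene Lipe. Summed over 9 endothelial markers the range was 668 to 2730 in UPPL and 556 to 5493 in BBN. Summed over 9 macrophage markers it was 361 to 1442 in UPPL and 1119 to 5561 in BBN, and 6 of the 9 were lower in UPPL. Of the 9 endothelial markers 1 was higher in UPPL and the groups overlapped in all 3 sums. Within a model 0 of 6 relations of Fabp4 to these sums passed, over 9 UPPL or 11 BBN tumours each. So few tumours cannot show that a relation is absent. The largest Spearman rho was 0.43, with macrophage markers in UPPL (permutation p = 0.25, adjusted p = 0.84). The largest Pearson r, 0.49 with adipocyte markers in BBN (Spearman rho 0.20), had permutation p = 0.12 and adjusted p = 0.75. That r dropped to 0.04 without 2 tumours, BBN974 and BBN965. Of 9 luminal urothelial markers 4 were higher in UPPL and 0 lower, with sums of 10028 to 68606 against 2726 to 21980. Within UPPL, UPPL1591 had the lowest luminal sum and the most Fabp4. UPPL1612, UPPL1694 and UPPL1695 had luminal sums of 57626 to 68606 and Fabp4 values of 6852 to 9917. UPPL1541 went the other way, with a luminal sum of 66282 and a Fabp4 value of 27231. A relation of Fabp4 to luminal markers within a model was not tested. Hypoxia genes were higher in 4 of 10 and epithelial markers in 3 of 6. The part of these genes in the result was not tested.

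**Figure D2:**
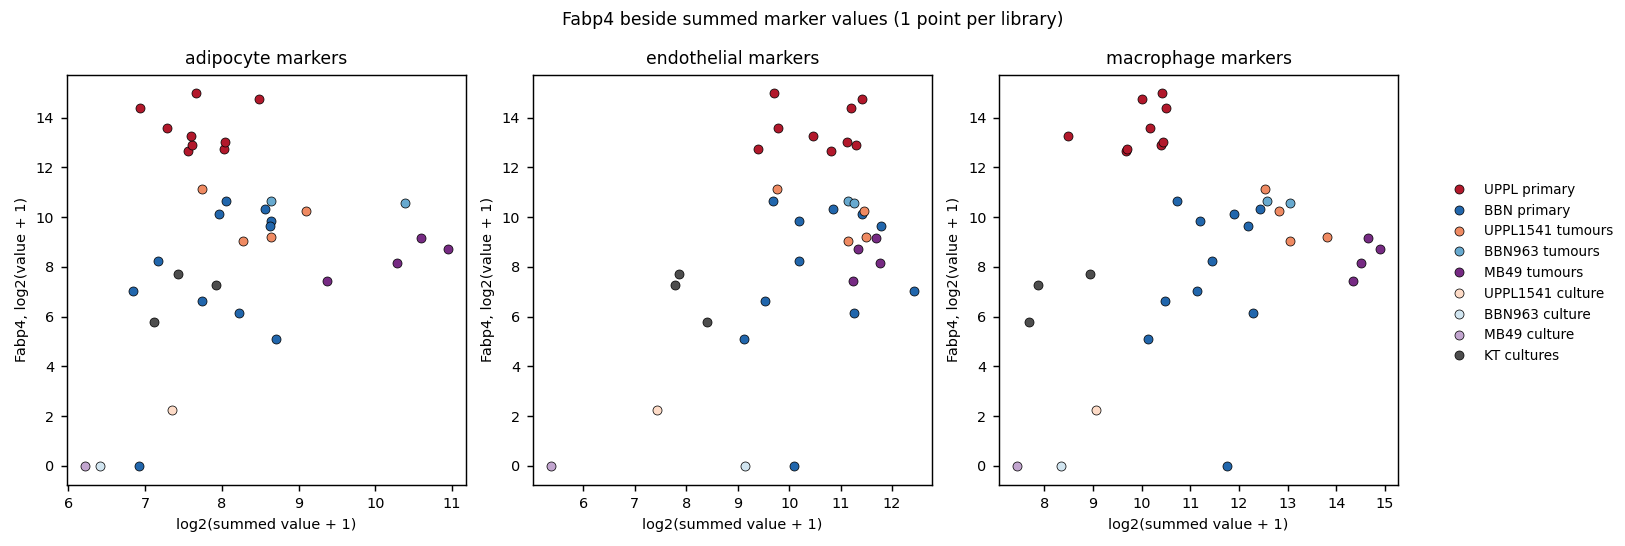
Fabp4 (y axis) against the summed value of 9 adipocyte, 9 endothelial and 9 macrophage markers (x axes), all as log2(value + 1), with 1 point per library and a colour per group. The 9 UPPL primary tumours are the highest points for Fabp4 in each panel and lie within or to the left of the BBN primary tumours along the marker axes.

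Fabp5, a second fatty acid binding protein gene, common in stratified epithelium, did not pass the test between models that Fabp4 passed. A relation of Fabp5 to Fabp4 from tumour to tumour was not tested. It ran from 484 to 37339 in UPPL (median 7148) and from 674 to 29137 in BBN (median 5538), with broad overlap. The log2 difference was 0.29 ± 0.68 (SE), with a 95% interval from -1.13 to 1.70. The tumour with the least Fabp5 in UPPL, UPPL1694, was among the highest for Pparg.

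Plin2 encodes perilipin 2, the protein that coats lipid droplets outside fat cells. It ran from 1192 to 7091 in UPPL (median 2178) and from 534 to 1651 in BBN (median 962.9). Of the UPPL tumours 6 of 9 lay above every BBN tumour. The log2 difference was 1.36 ± 0.31 (SE), with adjusted p = 0.0047. Hilpda, which encodes an inhibitor of triglyceride breakdown on the same droplets, was also higher, at 1239 ± 472 (SD, n = 9) against 437 ± 86.5 (SD, n = 11).

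Angptl4 encodes a secreted inhibitor of lipoprotein lipase and responds to PPARs and to hypoxia. It ran from 114 to 568.1 in UPPL (median 223) and from 31.6 to 595 in BBN (median 251). The groups overlapped broadly, and the log2 difference was 0.21 ± 0.44 (SE), with a 95% interval from -0.70 to 1.13.

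Acsl3 encodes an acyl-CoA synthetase that activates long-chain fatty acids at the endoplasmic reticulum and on droplets. It ran from 2928 to 8280 in UPPL (median 4200.0) and from 1011 to 2961 in BBN (median 1672). Of the UPPL tumours 8 of 9 lay above every BBN tumour, with UPPL1612 at 2928 just under BBN976 at 2961. On the log2 scale the difference was 1.33 ± 0.21 (SE), with adjusted p = 0.00036, the smallest of the 8.

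Cpt1a encodes the carnitine palmitoyltransferase that admits fatty acids to mitochondria, and is above all a PPARα target. It ran from 1845 to 4104 in UPPL (median 2979) and from 700 to 3768 in BBN (median 2471). The log2 difference of 0.58 ± 0.27 (SE) had adjusted p = 0.13, and the values overlapped.

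**Figure D3:**
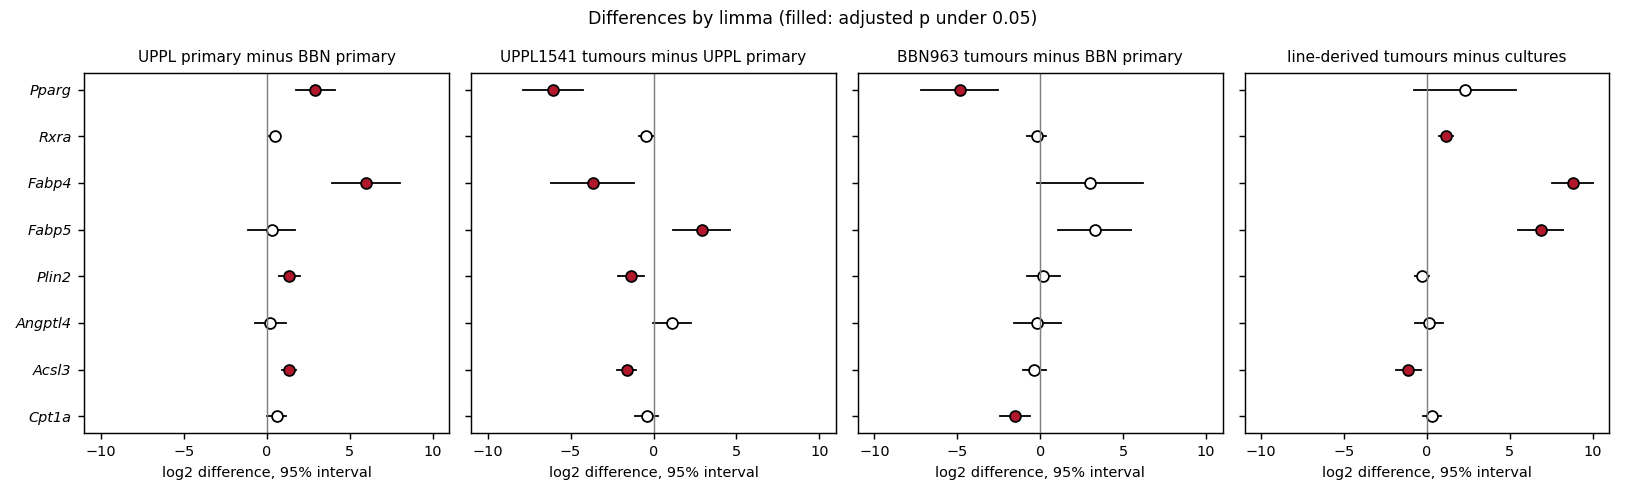
Log2 differences of the 8 genes in 4 comparisons, as points with 95% intervals from limma; filled points have an adjusted p under 0.05 and open points do not. Pparg lies above 0 for UPPL against BBN primary tumours and below 0 for both kinds of line-derived tumours against the primary tumours of their model, while Fabp4 lies below 0 for UPPL1541 tumours and not for BBN963 tumours.

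Of 66 further PPAR pathway genes, 53 were tested, 8 were higher in UPPL, 6 lower and 39 did not pass, beside 5.71% of all genes called higher and 12.8% lower, with a median log2 difference of 0.19 against -0.19 over all genes tested. Without the primary tumours UPPL1541 and BBN963, 9 were called, 5 higher and 4 lower. None of the 3 other receptors tested (Ppara, Ppard and Rxrb) and none of 13 coactivators and corepressors passed. Of 11 lipid droplet and lipolysis genes 4 were higher and 3 lower: Dgat2, which makes triglyceride, stood at 2505 ± 958 (SD, n = 9) against 956 ± 735 (SD, n = 11), while Mgll, which breaks monoglyceride down, stood at 36.5 ± 44.3 against 201 ± 192. Of 17 oxidation genes 3 were higher and 2 lower. Acadl, a mitochondrial acyl-CoA dehydrogenase gene, was higher by 0.66 ± 0.17 (SE) on the log2 scale, and Vnn1, a pantetheinase gene, was lower, at 159 ± 219 against 1070 ± 867. Of 9 uptake and activation genes 1 was higher and 1 lower. These were the fatty acid transporter Slc27a4, with a log2 difference of 0.92 and mean values of 3152 against 1748, and lipoprotein lipase, Lpl, at 33.4 ± 56.0 against 113 ± 85.0. The Lpl call was lost with edgeR on recovered reads (-1.66 in place of -3.08, adjusted p = 0.19) and without the libraries of coarse low values (-2.58, adjusted p = 0.062).

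Whether the targets followed the receptor from tumour to tumour was asked within each model, over 9 UPPL and 11 BBN tumours, so that the difference between models could not make the relation. None of 14 relations passed after adjustment. Fabp4 gave Pearson r = -0.33 (permutation p = 0.38) and Spearman rho = -0.27 in UPPL, and r = 0.01 (permutation p = 0.97) and rho = 0.15 in BBN. Without the 2 tumours farthest from the median of Pparg the r of Fabp4 was 0.24 in UPPL, where its sign turned without UPPL1591 and UPPL1695, and 0.34 in BBN. Among the 8 genes Fabp4 had the widest difference between models, and no relation of it to Pparg was detectable inside either model. By Pearson r the strongest relation in UPPL was the inverse one of Fabp5, which did not pass after adjustment, with r = -0.77 (exact permutation p = 0.014, adjusted p = 0.19), rho = -0.67 (exact permutation p = 0.059, adjusted p = 0.27) and r = -0.67 without the 2 tumours farthest from the median of Pparg. By Spearman rho the strongest in UPPL was that of Angptl4, with r = -0.60 (exact permutation p = 0.087) and rho = -0.72 (exact permutation p = 0.037, adjusted p = 0.26). The strongest relation in BBN was that of Acsl3, with r = 0.63 (permutation p = 0.036, adjusted p = 0.25) and rho = 0.73 (permutation p = 0.015, adjusted p = 0.20). Its r was 0.39 without BBN972 and BBN963, the 2 tumours lowest in Pparg, whose removal also narrows the range of Pparg. Plin2 in BBN gave r = 0.23 with all 11 tumours and 0.64 with those 2 left out (rho = 0.45, permutation p = 0.16).

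**Figure D4:**
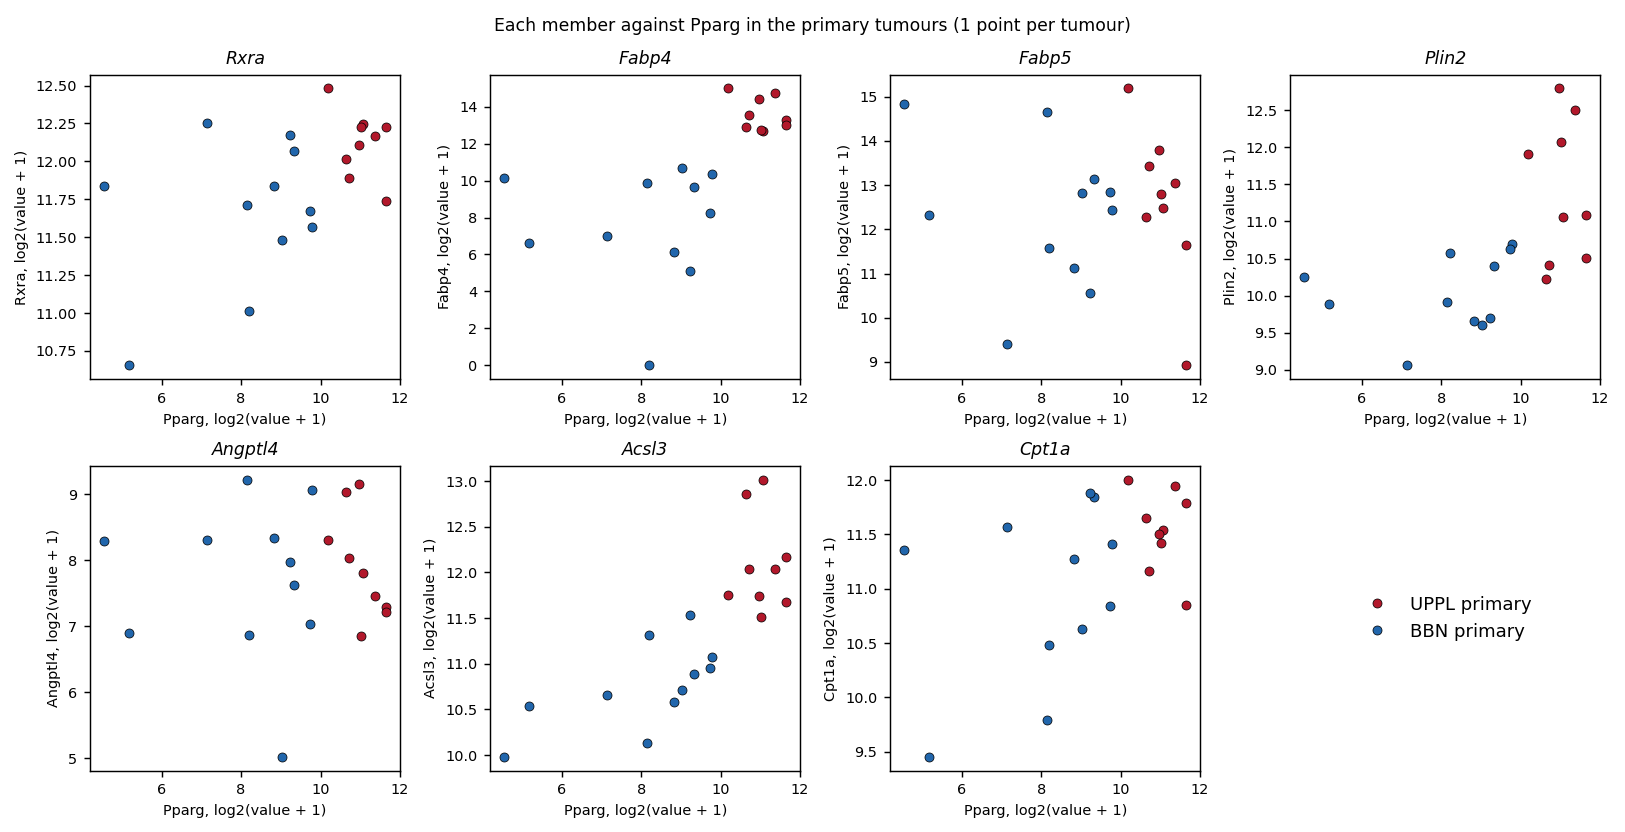
Each of the other 7 genes (y axes) against Pparg (x axes) in the 9 UPPL and 11 BBN primary tumours, as log2(value + 1), with 1 point per tumour. For Fabp4 the models form 2 separate clouds, with a rho of -0.27 within UPPL and 0.15 within BBN.

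The genes whose values most resembled those of Pparg were sought among 9791 genes, by the mean of the rho within UPPL and the rho within BBN tumours. Ildr1, which encodes a tricellular junction protein, came first with a mean rho of 0.89, and Upk1a, a uroplakin gene of the luminal urothelial surface, came second with 0.88. Add3, Abhd12 and Reps2 followed with 0.87, 0.87 and 0.85. These are the highest of many coefficients over few tumours and are given as a description. The other 7 genes ranked far lower, from 1783 for Acsl3 (mean rho 0.34) through 2116 for Plin2 (0.30) and 6255 for Fabp4 (-0.06) to 8975 for Angptl4 (-0.36). Upk1a had a median of 5191 in UPPL and 44.1 in BBN tumours, and Ildr1 of 1652 and 265.

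Transplantation was taken next, by comparing tumours grown from a line with the primary tumours of its model. In UPPL1541 tumours Pparg, Fabp4, Plin2 and Acsl3 were lower than in UPPL primary tumours and Fabp5 was higher, with the widest difference for Pparg. Thus 1 of the 8 genes was higher and 4 lower than in UPPL primary tumours, against 20.5% of 15229 genes tested called higher and 5.98% called lower, and a median log2 difference over all genes of 0.37. With quantile normalization the split of all genes was 1815 higher and 1736 lower and with median-of-ratios scaling 2395 and 1307, in place of 3128 and 911. The 5 genes kept their direction and call under both scalings.

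Pparg stood at 45.4, 23.5, 36.01 and 21.4 in the 4 UPPL1541 tumours. The primary tumour UPPL1541, which shares the line's number, held 2647, and the culture of the line 179. The 4 tumours grown from the line all lay below both. The log2 difference from the 9 primary tumours was -6.07 ± 0.88 (SE), with adjusted p = 1.7e-05, and the primary mean was 69.4 times that of the line-derived tumours. Fabp4 stood at 1202, 2246, 594 and 526.3, below all 9 primary tumours, whose lowest value was 6437. Its log2 difference was -3.68 ± 1.22 (SE), with adjusted p = 0.027. The Fabp4 call was lost without the libraries of coarse low values (-3.57, adjusted p = 0.056) and without UPPL1541 tumour 1, 3 or 4 (adjusted p up to 0.082).

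Plin2 stood at 1108, 1322, 975.9 and 818 in these tumours and Acsl3 at 1469, 1291, 1663 and 1256. All 4 Acsl3 values and 3 of 4 Plin2 values lay below every UPPL primary tumour. How many of all genes separated UPPL1541 tumours from the primary tumours so fully was not counted. The log2 differences were -1.37 ± 0.38 (SE; adjusted p = 0.009) for Plin2 and -1.63 ± 0.27 (SE; adjusted p = 7.5e-05) for Acsl3. Fabp5 went the other way, at 40168, 72120, 38458 and 45471, above the highest primary tumour at 37339. Its log2 difference was 2.91 ± 0.84 (SE), with adjusted p = 0.011, and 2.03 with adjusted p = 0.053 by edgeR on recovered reads. Rxra ran from 3024 to 3514 and its difference of -0.44 ± 0.21 (SE) had adjusted p = 0.13, though it passed with median-of-ratios scaling (-0.62, adjusted p = 0.025). Angptl4 (433 to 796) and Cpt1a (1629 to 2834) did not pass either, though Angptl4 passed with array weights (1.25, adjusted p = 0.018).

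Luminal markers moved the same way as Pparg in this comparison, with 7 of 9 lower and 1 higher and sums of 5044 to 7864 against 10028 to 68606. Macrophage markers were higher in 9 of 9, with sums of 5931 to 14443 against 361 to 1442, and 4 of 6 epithelial markers were lower. Their part in the result was not tested. Of 61 further PPAR pathway genes tested, 9 were higher and 8 lower, with a median log2 difference of 0.05. Of all 15229 genes tested 20.5% were called higher and 5.98% lower, with a median of 0.37. With array weights 29 pathway genes were called, 12 higher and 17 lower, beside 4838 higher and 1710 lower among all 15229 genes. Lpl rose from 33.4 ± 56.0 (SD, n = 9) to 862 ± 405 (SD, n = 4) and Cd36, the fatty acid scavenger receptor gene, from 9.53 ± 13.0 to 259 ± 197. Both are also well known in macrophages. Ppara fell from 256 ± 171 to 12.2 ± 3.16 and Plin4 from 247 ± 204 to 0.896 ± 1.79.

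In BBN963 tumours, of which there were 2, Pparg and Cpt1a were lower than in BBN primary tumours and 0 of the 8 genes were higher. Over all 15229 genes 5.67% were called lower and 2.09% higher, with a median of -0.17. With median-of-ratios scaling the split of all genes was 427 higher and 680 lower, in place of 318 and 864. Pparg stood at 88.8 and 0, and the primary tumour BBN963 held 35.4. The log2 difference was -4.86 ± 1.12 (SE), with adjusted p = 0.0074, but it rested on the tumour listed at 0: without BBN963 tumour 2 it was -1.62 and did not pass (adjusted p = 0.56), and without the libraries of coarse low values, which leaves that tumour alone and takes its spread from the other groups, the fitted value was -8.10, a size that depends on the added 1. With edgeR on recovered reads it was -3.10 with adjusted p = 0.098. Cpt1a stood at 950.5 and 502.5, against 700 to 3768 in primary tumours, a log2 difference of -1.52 ± 0.44 (SE) with adjusted p = 0.033. Without either BBN963 tumour, or by edgeR (-1.49, adjusted p = 0.06), Cpt1a did not pass.

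Fabp5 in the BBN963 tumours, at 52069 and 49181, lay above all 11 BBN primary tumours, as UPPL1541 tumours did in their model. How many of all genes did so was not counted. The log2 difference of Fabp5, 3.29 ± 1.07 (SE), had adjusted p = 0.057 in this fit and 0.016 with array weights. Fabp4 did not fall here: it stood at 1605 and 1521, within the range of the primary tumours, with a log2 difference of 3.00 ± 1.56 (SE) and adjusted p = 0.25. Hypoxia genes were higher in 5 of 10 and their sums were 102910 and 121521 against 7086 to 68859, while Angptl4, which hypoxia can raise, stood at 159 and 210 and did not pass (-0.18 ± 0.70, SE). Of 61 further pathway genes tested 1 was higher and 7 lower, beside 2.09% of all genes called higher and 5.67% lower. Among the lower was Ppara, at 12.9 ± 18.2 (SD, n = 2) against 200 ± 180 (SD, n = 11). The Ppara call was lost with edgeR on recovered reads (-3.85, adjusted p = 0.061) and without the libraries of coarse low values (-2.47, adjusted p = 0.35), and without those libraries 1 pathway gene was called. Luminal markers were lower in 3 of 9 and higher in 0, with sums of 4858 and 6741 against 2726 to 21980, and epithelial markers were lower in 2 of 6. Macrophage sums were 6108 and 8452 against 1119 to 5561, with 0 of 9 markers called. The part of these genes in the result was not tested.

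The model difference in line-derived tumours was set against that in primary tumours as an interaction in the same fit of 26 tumours. The line-derived side held 1 line per model, so transplantation, culture and the choice of line cannot be told apart. Of the 8 genes Fabp4 alone passed, and in the negative direction, so that 0 were called higher and 1 lower, against 8.16% of all genes called higher and 1.06% lower. The Fabp4 difference between UPPL and BBN was smaller in line-derived than in primary tumours, with an interaction of -6.68 ± 1.99 (SE) log2 units and adjusted p = 0.034. The median over all genes was 0.55. The split of all genes was 447 higher and 328 lower with quantile normalization and 701 and 326 with median-of-ratios scaling, in place of 1243 and 161. The Fabp4 call was lost without any 1 of 5 line-derived tumours (-7.09 to -5.92, adjusted p up to 0.18) and without the libraries of coarse low values (-6.75, adjusted p = 0.19). Acsl3 gave -1.26 ± 0.43 (SE) with adjusted p = 0.064, Plin2 -1.57 ± 0.62 (SE) with 0.11, and Pparg -1.21 ± 1.43 (SE) with 0.63. The 95% interval of the Pparg interaction ran from -4.13 to 1.72. Acsl3 passed with median-of-ratios scaling (-1.59, adjusted p = 0.024) and with edgeR on recovered reads (-1.67, adjusted p = 0.036). Of 61 further pathway genes tested 7 were higher and 1 lower.

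The tumours of the 3 lines were then compared with each other. Pparg was low in all 10: 21.4 to 45.4 in UPPL1541, 88.8 and 0 in BBN963, and 58.3, 70.7, 82.1 and 100.2 in MB49, and no difference between lines passed. All 4 UPPL1541 tumours lay below all 4 MB49 tumours. The share of all genes that separated these lines so fully was not counted. Without the libraries of coarse low values, which leaves BBN963 with the tumour listed at 0, all 3 differences passed: -1.44 for UPPL1541 against MB49 (adjusted p = 0.028), 4.96 for UPPL1541 against BBN963 (adjusted p = 0.0019) and -6.40 for BBN963 against MB49 (adjusted p = 0.00018). The latter pair rests on 1 BBN963 tumour, whose spread is taken from the other lines, and the size of a fitted difference from a value of 0 depends on the added 1 and is no bound. In UPPL1541 against MB49, 3 of the 8 genes were higher and 2 lower, against 27.3% and 22.6% of 14604 genes tested. In BBN963 against MB49, 3 were higher and 2 lower, against 15.8% and 26.1%. In UPPL1541 against BBN963, 2 were higher and 0 lower, against 21.4% and 7.37%. With so many genes called, these counts of the 8 genes are close to what the background gives. For UPPL1541 against BBN963 the split of all genes was 1887 higher and 1719 lower with quantile normalization and 2431 and 1644 with median-of-ratios scaling, in place of 3132 and 1076. For BBN963 against MB49 it was 2914 and 2826 with edgeR on recovered reads, in place of 2309 and 3812.

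Rxra stood at 654, 787, 576 and 557 in MB49 tumours, below every UPPL1541 tumour (3024 to 3514) and both BBN963 tumours (2576 and 2979). The log2 difference from MB49 was 2.37 ± 0.13 (SE; adjusted p = 9.1e-08) for UPPL1541 and 2.12 ± 0.16 (SE; adjusted p = 1.8e-06) for BBN963. Among the 8 genes Fabp5 gave the widest gap, at 1390, 505, 592 and 1002 in MB49 against 38458 or more in the other lines. Its log2 difference from MB49 was 5.88 ± 0.31 (SE; adjusted p = 5.3e-08) for UPPL1541 and 5.98 ± 0.37 (SE; adjusted p = 4e-07) for BBN963. Between those lines it was -0.09 ± 0.37 (SE), with a 95% interval from -0.92 to 0.73. Summed epithelial markers were also low in MB49 tumours, at 15745 to 26106 against 137993 to 159700 in UPPL1541 tumours. Of the 6 markers, 4 were higher and 2 lower in UPPL1541 than in MB49 tumours, with the same counts for BBN963 against MB49. Their part in the result was not tested.

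Fabp4 in MB49 tumours stood at 571, 421, 170 and 281, lower than in UPPL1541 tumours (log2 difference 1.55 ± 0.47, SE, adjusted p = 0.017) and in BBN963 tumours (2.25 ± 0.57, SE, adjusted p = 0.0083). The former call was lost without MB49 tumour 3 (adjusted p = 0.05) and the latter without BBN963 tumour 1 (adjusted p = 0.054), and neither passed in 1 fit over all 36 libraries. Macrophage sums ran from 20870 to 30505 in MB49 against 5931 to 14443 in UPPL1541. Adipocyte sums ran from 660 to 1971 against 212.5 to 547, and endothelial sums from 2417 to 3472 against 871 to 2874. The part of these genes in the result was not tested.

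Angptl4 separated all 3 lines, with 1640, 1017, 1230 and 1217 in MB49, 796, 464, 433 and 448 in UPPL1541, and 159 and 210 in BBN963. None of these groups overlapped, and the share of all genes that separated the 3 lines in this way was not counted. The log2 difference was -1.28 ± 0.23 (SE; adjusted p = 0.00075) for UPPL1541 against MB49, -2.78 ± 0.28 (SE; adjusted p = 1.6e-05) for BBN963 against MB49, and 1.5 ± 0.28 (SE; adjusted p = 0.0029) for UPPL1541 against BBN963. Hypoxia sums were highest in BBN963, the line lowest in Angptl4, at 102910 and 121521, against 19512 to 38563 in UPPL1541 and 16817 to 31892 in MB49. Cpt1a was low in BBN963 alone, at 950.5 and 502.5 against 1629 to 2834 in UPPL1541 (1.69 ± 0.26, SE, adjusted p = 0.001) and 2023 to 2617 in MB49 (-1.73 ± 0.26, SE, adjusted p = 0.00032). Plin2 was lower in UPPL1541 than in MB49, where it stood at 1908, 1660, 1608 and 1686 (-0.72 ± 0.16, SE, adjusted p = 0.0028). Acsl3 ran from 1028 to 1768 over all 10 tumours, and no difference between lines passed, with fitted log2 differences of -0.01 to 0.07. In 1 fit over all 36 libraries the UPPL1541 calls against MB49 for Plin2 and Angptl4 and against BBN963 for Angptl4 were lost.

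Of 58 further pathway genes tested, 18 were higher and 10 lower in UPPL1541 than in MB49 tumours, 18 and 2 in UPPL1541 than in BBN963, and 7 and 14 in BBN963 than in MB49. Over all genes the shares called higher and lower were 27.3% and 22.6%, 21.4% and 7.37%, and 15.8% and 26.1% in the same order, so most of these counts lie near the background. Vnn1 stood at 809 ± 102 (SD, n = 4) in UPPL1541, 7.35 ± 10.4 (SD, n = 2) in BBN963 and was listed at 0 in all 4 MB49 tumours. Ehhadh, a peroxisomal oxidation gene, was listed at 0 in both BBN963 tumours and stood at 188 ± 29.9 in UPPL1541 and 112 ± 32.2 in MB49. Ppard stood at 1412 ± 168 in UPPL1541, 1842 ± 179 in BBN963 and 485 ± 90.9 in MB49. Pnpla2, the adipose triglyceride lipase gene, stood at 442 ± 78.5, 213 ± 52.0 and 1482 ± 200 in the same order. In 1 fit over all 36 libraries 7 pathway genes were called between UPPL1541 and BBN963, and 13 with tumour number as a block.

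The line-derived tumours were last compared with the 3 cultures of their own lines, with line as a factor. Fabp4, Fabp5 and Rxra were higher in the tumours and Acsl3 lower, so 3 of the 8 genes were called higher and 1 lower, against 20.1% and 8.99% of 14321 genes tested. The median over all genes was 0.13, and with quantile normalization the split of all genes was 2152 higher and 2203 lower, in place of 2876 and 1287. With 1 culture per line, the spread comes from the tumours and from how far the 3 lines differ in their change.

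Fabp4 was all but absent from the cultures, at 3.73 in UPPL1541 and listed at 0 in BBN963 and MB49. Against a floor of 3 reads in the culture, the mean of the tumours was at least 428-fold higher in BBN963 and at least 125-fold higher in MB49. The fitted log2 difference was 8.78 ± 0.57 (SE), with adjusted p = 1.6e-07. Fabp5 stood at 1311 and 1133 in the UPPL1541 and BBN963 cultures, so the tumour means were 37.4 and 44.7 times higher, and at 0 in the MB49 culture, against which the tumour mean was at least 302-fold higher. Its fitted log2 difference was 6.85 ± 0.64 (SE), with adjusted p = 4.4e-06. Rxra stood at 961, 1282 and 436 in the UPPL1541, BBN963 and MB49 cultures, below every tumour of the same line (1.15 ± 0.20, SE, adjusted p = 0.00082).

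Markers of cell types that can make Fabp4 were also higher in the tumours: macrophage markers in 9 of 9, endothelial markers in 8 of 9 and adipocyte markers in 2 of 5 tested. Hypoxia genes were higher in 8 of 10. Adipocyte sums were 73.5 to 162 in the 3 cultures against 212.5 to 1971 in the 10 tumours, and macrophage sums were 174 to 533 in the 3 cultures against 5931 to 30505 in the 10 tumours. Their part in the result was not tested.

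Acsl3 stood at 7724, 2701 and 1249 in the UPPL1541, BBN963 and MB49 cultures, against tumour means of 1420, 1398 and 1369. The fitted difference of -1.12 ± 0.35 (SE; adjusted p = 0.028) had no counterpart in MB49, and it did not pass without the culture of either line (-1.79 to -0.39) or without the libraries of coarse low values (-1.07, adjusted p = 0.056). Pparg, at 179 in the UPPL1541 culture and listed at 0 in the other two, was above its tumours in UPPL1541 alone, and its fitted difference of 2.27 ± 1.42 (SE) did not pass (adjusted p = 0.25) and turned to -0.05 with edgeR on recovered reads. Plin2 (-0.31 ± 0.20, SE), Angptl4 (0.12 ± 0.39, SE) and Cpt1a (0.30 ± 0.25, SE) did not pass. Plin2 was highest in the MB49 culture, at 3064, and lowest in the UPPL1541 culture, at 861. Of 57 further pathway genes tested 17 were higher in the tumours and 2 lower, beside 20.1% of all genes called higher and 8.99% lower. With array weights 7 pathway genes were higher and 0 lower. Cd36 and Lpl were among the highest, at 259 ± 165 and 800 ± 474 (SD, n = 10) in tumours against 3.73 ± 6.47 and 26.5 ± 40.4 (SD, n = 3) in cultures.

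The 3 KT lines, each a single culture with no tumours of its own here, held both the receptor and Fabp4. Pparg stood at 15.5 in KT1044, 174 in KT1970 and 189 in KT1975, and Fabp4 at 209, 53.9 and 156. The line with the least Pparg thus had the most Fabp4. Fabp5 was alike in all 3, from 2292 to 2742, and above the other cultures. Angptl4 ran from 107 to 134, below the other 3 cultures at 371 to 569, and Acsl3 from 4110 to 6190, between BBN963 and UPPL1541. Luminal marker sums ranged from 4356 to 29487 among the 3 lines. With 1 library per line, these are values without a test.

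Across all groups the order of Pparg by median was UPPL primary tumours (2076), BBN primary tumours (454), the cultures of KT1975, UPPL1541 and KT1970 (189 to 174), then the tumours of MB49, BBN963 and UPPL1541 and the culture of KT1044, with the BBN963 and MB49 cultures listed at 0. UPPL primary tumours alone stood clear of the next group, since BBN primary tumours spread down to 22.5. The order of Fabp4 by median was UPPL primary tumours (9917), BBN963 tumours (1563), UPPL1541 tumours (898), MB49 tumours (351), BBN primary tumours (304), KT cultures (156) and the other 3 cultures (0 to 3.73). The first place stood clear of the second, while BBN primary tumours, at 0 to 1628, overlapped every group but the first. Fabp5 was highest in UPPL1541 and BBN963 tumours, whose values overlapped, and next in the primary tumours, whose models overlapped broadly.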

How the data were processed

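Gene expression was measured by stranded mRNA sequencing, per the labels' protocols. The submitters' processing notes name mm9, RSEM, Picard 1.64 and SAMtools without their roles. The values are the authors' deposited signal, scaled so that the 75th percentile of genes above 0 is 1000. Reads were recovered from the steps in low values, of which 93.1 to 97.0% per library were whole within 0.02 of a read, and libraries held 9294380 to 17926585 reads. Differences were tested with limma 3.58.1 (R 4.3.3) on log2(value + 1), in separate fits for primary tumours, line-derived tumours, both together, and line-derived tumours with cultures. Genes needed a value of 10 in as many libraries as the smallest group had, and p-values were adjusted by Benjamini and Hochberg over all genes tested. Relations used permutation of pairings, all 362880 for 9 tumours and 100000 drawn for 11, two-sided, with SciPy 1.17.1. The scripts were tested on simulated data.

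Named genes were the 8 genes, up to 3 genes per pathway list with the smallest adjusted p and a mean of at least 100, and the 5 most like Pparg; Epcam was chosen after its values were seen. The genes and lists were chosen with earlier results of these data known. Alternatives were quantile and median-of-ratios scaling, array weights, pseudocount 10, other filters on low values, 1 fit over all libraries, a replicate block and leaving out libraries. The edgeR 4.0.16 quasi-likelihood test on recovered reads and the exclusion of the 5 libraries of coarse low values were added after seeing the data. Nothing states that replicates were separate cultures or animals, so p-values measure the spread between these samples. A floor of 3 reads covers counting error only. A further allele of the UPPL genotype and a gene that the naming rule selects are not reported here.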

Additional observations from a re-analysis of the deposited data

Results flagged for a closer look

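Angptl4 stood at 795.7 in UPPL1541 tumour 1 and between 433.3 and 464.1 in the other 3 tumours of that line. Its distance to the nearest of them was 0.887 of the range of the group, above the limit of 0.829 for 4 libraries. Chance marks about 1 in 20 groups, and 24 groups were examined. Without that tumour Angptl4 in UPPL1541 against BBN963 was 1.29 on the log2 scale in place of 1.5, and still passed.

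The difference of Fabp4 between UPPL and BBN changed between primary and line-derived tumours in a test of the interaction itself, with -6.68 on the log2 scale (limma, adjusted p = 0.034). The call was lost without most line-derived tumours when each was left out by itself. It was also lost without the libraries of coarse low values (-6.75). The line-derived side held a single line per model.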

How the results depend on the processing

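The 4 calls among the 8 genes in primary tumours held under each alternative run. Pathway genes called there were 9 without the primary tumours UPPL1541 and BBN963. In 1 fit over all 36 libraries, 2 of the 8 genes were called for UPPL1541 against MB49, 1 for UPPL1541 against BBN963 and 2 for the interaction, and 7 pathway genes for UPPL1541 against BBN963. With array weights, pathway genes called were 29 for UPPL1541 against UPPL primary tumours, 15 for the interaction and 7 against cultures. For UPPL1541 against UPPL primary tumours 4838 of all 15229 genes were called higher and 1710 lower with these weights. Of the 8 genes, 3 were then called for the interaction, against 2 with median-of-ratios scaling and 2 with edgeR. With edgeR 0 of the 8 genes were called for BBN963 against BBN primary tumours. Without the libraries of coarse low values, 1 of the 8 genes and 1 pathway gene were called there, and 0 of the 8 genes and 2 pathway genes for the interaction.

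Same-numbered tumours of different lines correlated by -0.093 to 0.066 in their deviations from the line means. Tumours of different numbers correlated by -0.071 to 0.093. So few libraries cannot show whether the numbers pair libraries, and the deviations of the BBN963 tumours mirror each other by construction. With the number as a replicate block, 13 pathway genes were called for UPPL1541 against BBN963, where Fabp5 turned to 0.028. No paired analysis was possible for the other comparisons because their groups share no numbers that pair animals.

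Signs turned only for values that had not passed the test. For UPPL1541 against BBN963, Pparg was -0.74 with edgeR, and Acsl3 was -0.07 with quantile normalization, -0.13 with median-of-ratios scaling, -0.17 with edgeR and -0.325 without the libraries of coarse low values. For BBN963 against MB49, Acsl3 was 0.073 with quantile normalization, 0.175 with median-of-ratios scaling, 0.072 with array weights, 0.20 with edgeR and 0.405 without the libraries of coarse low values. Without those libraries Angptl4 was 0.176 for BBN963 against primary tumours and the Pparg interaction 1.98. Against cultures, Pparg was -0.22 with array weights and -0.045 with edgeR, and Angptl4 -0.037 with edgeR. With quantile normalization rho with Pparg was 0.07 for Acsl3 in UPPL and 0.05 for Rxra in BBN. The cause was not tested.

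Leaving out 1 library at a time gave these ranges. In primary tumours Fabp5 ran from -0.034 to 0.749 and Angptl4 from -0.055 to 0.36. For UPPL1541 against MB49, Acsl3 ran from -0.03 to 0.146 and Cpt1a from -0.16 to 0.11. For UPPL1541 against BBN963, pathway genes called ran from 12 without BBN963 tumour 1 to 24, Pparg from -1.53 to 4.96, Fabp5 from -0.29 to 0.008 and Acsl3 from -0.325 to 0.46. For BBN963 against MB49, Pparg ran from -6.27 to 0.22 and Acsl3 from -0.40 to 0.38. For BBN963 against primary tumours, 0 of the 8 genes (without BBN963 tumour 2) to 3 were called and 3 (without BBN963 tumour 1) to 9 pathway genes, and Angptl4 ran from -0.44 to 0.024 and Acsl3 from -0.75 to 0.029. For the interaction 0 to 2 of the 8 genes and 2 to 10 pathway genes were called, the lowest of both without BBN963 tumour 1, and Pparg ran from -4.45 to 2.04. Against cultures Angptl4 ran from -0.48 to 0.86. A tumour value of 0 can stand for several reads, which limits Pparg and Ehhadh in BBN963, Vnn1 in MB49 and Fabp4 in BBN965.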

Other observations

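Fabp4 and Fabp5 lie on chromosome 3 beside Pmp2, Fabp9 and Fabp12, genes of the same family that were looked up after the values of Fabp4 were seen. Fabp9 was listed at 0 in all 36 libraries, Pmp2 reached no more than 16.7 and Fabp12 no more than 24.8, and all 3 had a median of 0 in both kinds of primary tumour.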
